A study of Mus musculus with 6 samples.

Results

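The genes described here encode the proteins of the cytosolic ribosome. They were chosen by gene symbol: every symbol of the Rpl or Rps series followed by a number (with a closing a, x or l where the gene has one), together with Rpsa, Rplp0, Rplp1 and Rplp2. The rule found 85 of the 24589 genes in the table, of which 52 belong to the large subunit and 33 to the small subunit. All 85 matched a RefSeq gene, 84 of them protein-coding, while Rps4l is annotated as a transcribed pseudogene. They lie on 19 chromosomes, with 14 of them on chromosome 7.

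RNA was measured in wild-type primary mouse CD8+ T cells, the lymphocytes that kill infected and tumour cells, which had been isolated from spleen and lymph nodes of C57BL/6 mice with magnetic beads. All cells were activated with antibodies to CD3 and CD28 and then kept for 24 h with DMSO, the solvent control (3 libraries), or with TVA (trans-vaccenic acid, found in the milk and meat of ruminants) at 20 µM (3 libraries). No label says whether the 3 libraries of a group came from separate animals or cultures, so p-values measure only the spread between these libraries. Expression is given as TPM, a transcript level corrected for transcript length that sums to the same total in every library. TPM carries no read depth, which is therefore unknown, and a value of 0 says only that the gene is listed at 0.

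The ribosome joins a small subunit, which binds the mRNA and reads its codons, to a large subunit, which forms the peptide bonds and holds the tunnel through which the new chain leaves. Each ribosomal protein is present in 1 copy per ribosome, apart from the acidic stalk proteins, and the proteins are made in step with ribosomal RNA. Most of their mRNAs start with a cytosine followed by an unbroken run of C and T bases, the 5′ terminal oligopyrimidine (TOP) element, through which their translation is tied to mTOR activity and the RNA-binding protein LARP1. Resting T cells hold few ribosomes, and activation brings a large rise in ribosome production before division. Free RPL5 and RPL11, which assemble with an RNA of the large subunit, can bind MDM2 and so stabilise p53 when ribosome assembly fails.

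RefSeq start sites were used to look for the TOP element at the DNA level (RefSeq, GRCm38.p6). A start site was found for 64 of the 85 genes, and the 30 bases around it, 15 on either side, were searched on the coding strand for the longest unbroken run of C and T. A run of at least 8 bases stood in 26 of the 64 windows (40.6%), against 11.9% of all 27022 promoters in the table. It stood in 44.1% of 34 large subunit genes and 34.8% of 23 small subunit genes once paralogs of another member were left out. The windows printed here belong to the genes whose levels are described most closely in the text (Rpl13, Rps2, Rpl22l1, Rpl27a and Rps7), to Rps6, whose product is the best known phosphorylated ribosomal protein, and to Rpl7a, Rpl15 and Rps10, which show what a long run looks like. Capitals mark the longest run of C and T, or the first of equally long runs, and the annotated start is the 16th base.
Rpl13, chr8:123102335-123102364, plus strand: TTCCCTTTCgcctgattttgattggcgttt
Rps2, chr17:24720048-24720077, plus strand: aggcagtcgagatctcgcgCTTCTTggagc
Rpl22l1, chr3:28805493-28805522, plus strand: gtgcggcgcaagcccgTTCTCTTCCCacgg
Rpl27a, chr7:109519180-109519209, plus strand: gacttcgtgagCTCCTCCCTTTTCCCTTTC
Rps7, chr12:28635939-28635968, minus strand: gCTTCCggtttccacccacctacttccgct
Rps6, chr4:86857353-86857382, minus strand: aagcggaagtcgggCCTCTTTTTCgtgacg
Rpl7a, chr2:26910792-26910821, plus strand: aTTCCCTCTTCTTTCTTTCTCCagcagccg
Rpl15, chr14:18270972-18271001, minus strand: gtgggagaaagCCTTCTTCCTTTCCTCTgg
Rps10, chr17:27635230-27635259, minus strand: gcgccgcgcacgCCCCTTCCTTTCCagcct
In Rpl27a, Rpl7a, Rpl15, Rps6 and Rps10 the run crosses the annotated start, whereas in Rpl13 it lies upstream and in Rps2 and Rpl22l1 downstream of it. The marked run of Rps7 lies upstream, but its window holds runs of the same length on both sides of the start. The sequence CCGGAAG, a core recognised by transcription factors of the ETS family, was searched on both strands over the 300 bases from 250 before to 50 after the start. It was found in 25 of the 64 genes (39.1%), against 9.12% of all promoters. The sequence AAGATGGC, a core of the YY1 site, was found in 7.81% of the 64 genes and in 2.88% of all promoters. Both can overlap, since the first ends and the second begins with AAG. A match is a description of the letters only.

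The ribosomal protein genes were among the most abundant transcripts in these cells. They took 28.0%, 28.2% and 28.4% of all TPM in DMSO replicates 1, 2 and 3 and 27.6%, 26.9% and 27.3% in TVA replicates 1, 2 and 3. They made up 66 of the 100 genes with the highest mean TPM. Leaving out paralogs and Rps27, the remaining 76 genes had a median level of 3530 TPM (interquartile range 2167 to 4914), and 70 of them were above 1000 TPM. The median was 2987 TPM over 46 large subunit genes and 4046 TPM over 30 small subunit genes. Although the proteins are needed in equal numbers, apart from those of the acidic stalk, the highest listed level of the 76 genes was 52.7-fold above the lowest. Near-identical copies can draw reads from a gene, and their part in this range was not tested.

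At the top stood Rps29, a zinc-binding protein of the small subunit head, with 8779, 11222 and 10127 TPM in the DMSO libraries and 10894, 10775 and 10968 TPM in the TVA libraries. Rps12, a protein of the small subunit beak, had 8888, 9263 and 9157 TPM under DMSO and 9848, 9066 and 9162 TPM under TVA. Rplp1, an acidic protein of the stalk that recruits elongation factors, had 8711, 8484 and 8064 TPM under DMSO and 8452, 8122 and 8258 TPM under TVA. In all 3 genes the groups overlapped. The lowest levels among these 76 genes were those of Rpl30, Rpl22 and Rps15a, between 159.6 and 254 TPM in the 6 libraries. Rps15a, a protein of the small subunit body, had 211, 245 and 211 TPM under DMSO and 225, 226 and 232 TPM under TVA, so that here too the groups overlapped.

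The summed level of the large subunit genes was lower in the TVA libraries. It was 153332, 150736 and 153752 TPM in DMSO replicates 1, 2 and 3 and 147043, 143577 and 145784 TPM in TVA replicates 1, 2 and 3. All TVA sums lay below all DMSO sums, and the means differed by -4.68%. The small subunit genes summed to 126308, 131624.5 and 130676 TPM under DMSO and to 128590.0, 125526 and 126935 TPM under TVA. Those groups overlapped, with a difference of the means of -1.94%. The sum over both subunits without Rpl13 and Rps2, which had the most negative change of each subunit, differed by -2.25%. The ratio of the large to the small subunit sum was 1.21, 1.15 and 1.18 with DMSO and 1.14, 1.14 and 1.15 with TVA. Because TPM is a share of a fixed total, these sums show a share of the transcripts and not an amount of RNA per cell, and in bulk RNA fewer cells of a type cannot be told apart from less RNA per cell.

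**Figure D1:**
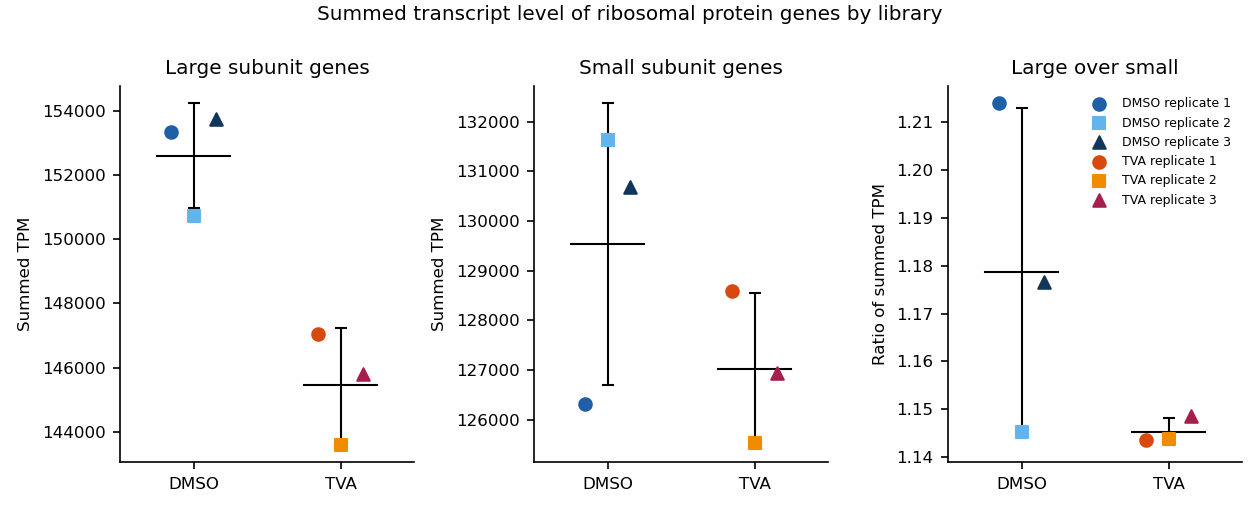
Summed TPM of the large subunit genes (left), of the small subunit genes (middle) and the ratio of these sums (right) in each library. Points are single libraries and the bars are the group mean ± SD (n = 3); the vertical axes do not start at 0. All TVA sums of the large subunit lie below all DMSO sums, while those of the small subunit overlap.

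The comparison of TVA with DMSO asked which transcripts respond to TVA. Of the 85 genes, 82 were tested (50 of the large and 32 of the small subunit), with limma over all 10866 genes that had at least 1 TPM in at least 3 libraries. A change is a difference of log2(TPM + 1), TVA minus DMSO, and was called at an adjusted p under 0.05. No large subunit gene was called, and 1 small subunit gene, Rps4l, was called lower with TVA. Over all genes tested, 8.51% were called, 5.28% higher and 3.23% lower. After scaling each library to the total without the ribosomal protein genes, 3.41% of all genes were called higher and 3.43% lower, after median-of-ratios scaling 2.48% and 4.53%, and after quantile normalization 3.29% and 3.85%. Among 1411 other abundant genes, those averaging 100 TPM or more, 8.22% were called.

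At an unadjusted p under 0.05, 1 large subunit gene was higher and 10 were lower with TVA, and 0 small subunit genes were higher and 6 lower. Over all genes tested, the shares at this level were 21.5% higher and 10.3% lower. The TVA values lay below all DMSO values in 12 of 50 large subunit genes and in 6 of 32 small subunit genes, and above them in none of the 82, whereas over all genes the TVA values lay below in 11.2% and above in 27.3%. The log2 change was negative in 36 of 50 large subunit genes (72.0%) and in 20 of 32 small subunit genes (62.5%), against 38.5% of all genes and 35.4% of the other abundant genes.

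The differences were small. The median log2 change was -0.05 over the large subunit genes, -0.02 over the small subunit genes and 0.04 over all genes tested. The changes ran from -0.79 to 0.23 in the large subunit and from -0.43 to 0.13 in the small subunit. They were under 0.1 in size in 33 large and 22 small subunit genes. The median standard error (SE) of a change was 0.049 in the large and 0.051 in the small subunit, about the size of a typical change.

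**Figure D2:**
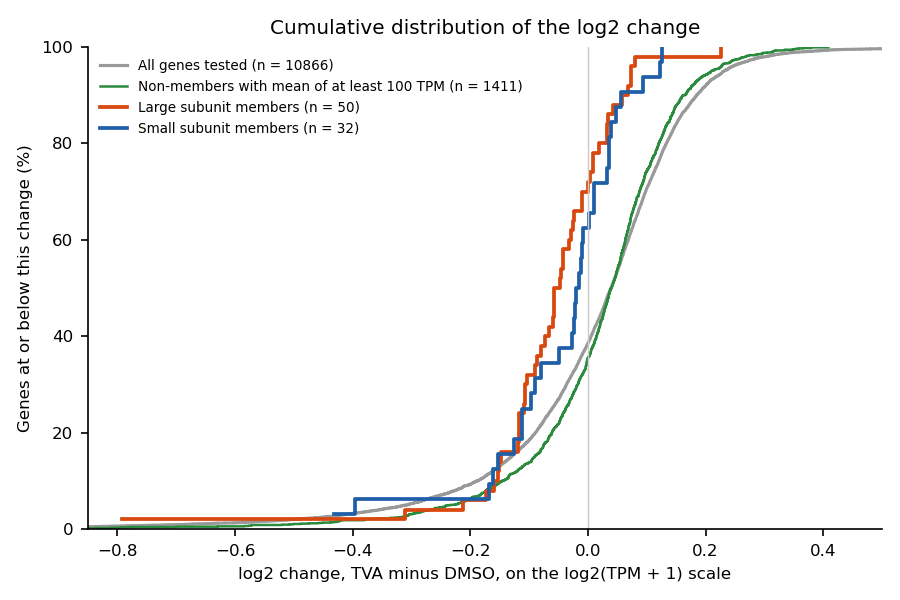
Share of genes (vertical axis, %) at or below each log2 change between TVA and DMSO (horizontal axis, log2(TPM + 1) scale) for the large subunit genes, the small subunit genes, the other abundant genes and all genes tested. The curves of the ribosomal protein genes lie to the left of the curve of all genes, with medians of -0.05 and -0.02 against 0.04.

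The DMSO libraries differed among themselves more than the TVA libraries did. The SD over the DMSO libraries exceeded that over the TVA libraries in 76 of the 82 genes (92.7%), against 73.3% of all genes tested. The median coefficient of variation was 5.21% with DMSO and 1.63% with TVA. Of the 6 libraries, DMSO replicate 1 held the highest value of 24 genes and the lowest of 27, and DMSO replicate 3 the highest of 17 and the lowest of 19. DMSO replicate 2 held the highest value of 29 genes and the lowest of 1. Its value was nearer to the TVA mean than to the mean of the other DMSO libraries in 52 of the 82 genes (63.4%), against 47.4% of all genes.

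Leaving out DMSO replicate 2 moved the counts more than any other omission. Then 12 large and 8 small subunit genes were called, 16 of them lower and 4 higher, which is 24.4% of the 82 genes tested. Over all genes, 20.6% were called without this library, 9.38% lower and 11.3% higher. Among the genes called lower were Rpl8, Rpl13, Rpl13a, Rpl22, Rpl22l1, Rpl24, Rpl27a, Rpl28, Rpl36, Rplp2, Rps2, Rps4l, Rps7, Rps10 and Rps26, and among those called higher were Rpl30, Rpl31 and Rps29. Without DMSO replicate 1 the only gene called was Rpl27a (8.70% of all genes), and without DMSO replicate 3, TVA replicate 1 or TVA replicate 2 none was, where 2.71%, 1.15% and 0.939% of all genes were. The results that follow are given with all libraries, and without DMSO replicate 2 where that changes the call. A call made only then leaves out a DMSO library that often lay near the TVA values, so it adds no support of its own.

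**Figure D3:**
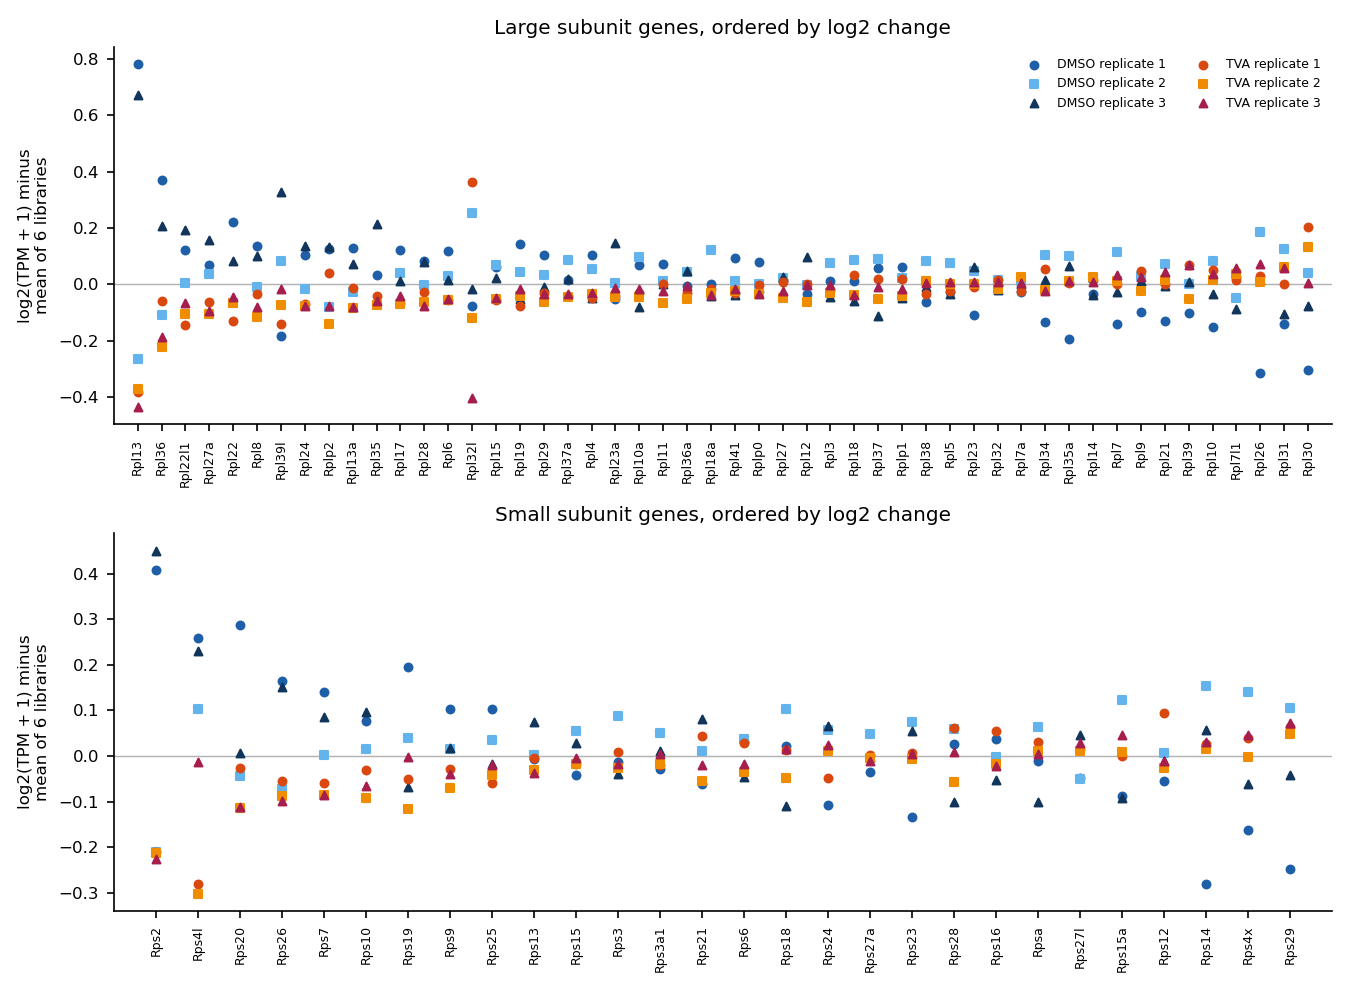
Level of genes tested in each library, as log2(TPM + 1) minus the mean of the 6 libraries (vertical axis), for the large subunit (top) and the small subunit (bottom), with genes ordered by their log2 change. Blue symbols are DMSO and orange to red symbols TVA libraries; DMSO replicates 1 and 3 lie far from the rest in Rpl13 and Rps2, and DMSO replicate 1 alone does in Rpl26 and Rps14. Not every gene tested is plotted.

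Rps4l, a paralog of Rps4x annotated as a transcribed pseudogene, was the only gene called. Its level was low, at 5.24, 4.60 and 5.12 TPM in the DMSO libraries and 3.29, 3.23 and 4.17 TPM in the TVA libraries. All TVA values lay below all DMSO values, and the log2 change was -0.40 (SE 0.092, limma adjusted p 0.044). It was no longer called without DMSO replicate 1 (adjusted p 0.067), DMSO replicate 3 (0.11), TVA replicate 1 (0.13) or TVA replicate 2 (0.17), with the replicate number as a block (0.062), with all genes above 0 TPM tested (0.086) and after a correction for GC content (0.13). The change of Rps4l was -0.25 after the GC correction. Rps4x, whose transcript is the main source of this small subunit protein, had 4036, 4983 and 4330 TPM under DMSO and 4649, 4511 and 4666 TPM under TVA. The groups of Rps4x overlapped (log2 change 0.06, SE 0.075, limma adjusted p 0.63). The longest stretch that the transcripts of the pair share without a mismatch is 38 bases.

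Among the large subunit genes, Rpl13 had the largest difference. Its product is a structural protein of the large subunit surface. It was measured at 5117, 2482 and 4742 TPM in DMSO replicates 1, 2 and 3 and at 2285, 2302 and 2203 TPM in TVA replicates 1, 2 and 3. The TVA values lay close together and below all DMSO values, but DMSO replicate 2 lay near them. The log2 change of -0.79 (SE 0.24) did not pass the threshold (limma adjusted p 0.076), and without DMSO replicate 2 it was -1.12 (limma adjusted p 1.58e-05). Without DMSO replicate 1 it was -0.60 (limma adjusted p 0.13) and without DMSO replicate 3 -0.65 (limma adjusted p 0.19). Leaving out a TVA library gave limma adjusted p of 0.18 to 0.21.

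Rpl36 was measured at 4450.0, 3196 and 3977 TPM under DMSO and at 3311, 2959 and 3026 TPM under TVA. DMSO replicate 2 again lay lowest of its group, and TVA replicate 1 lay above it. The log2 change was -0.31 (SE 0.11, limma adjusted p 0.11), and -0.44 without DMSO replicate 2 (limma adjusted p 0.0048). It was -0.20 without DMSO replicate 1 (limma adjusted p 0.17) and -0.13 after a correction for GC content (limma adjusted p 0.21), which is high in Rpl36 at 60.8%. Rpl27a, whose window holds a long run of C and T, was measured at 2131, 2086 and 2265 TPM under DMSO and at 1949, 1889 and 1903 TPM under TVA. All TVA values lay below the DMSO values. Its log2 change of -0.17 (SE 0.044) stood just outside the threshold (limma adjusted p 0.051), and passed it without DMSO replicate 2 (0.016), without DMSO replicate 1 (0.045) and after scaling to the total without the ribosomal protein genes (0.049). After quantile normalization the change of Rpl27a was -0.11 (limma adjusted p 0.21).

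Rpl8 and Rpl24 also had TVA values below all DMSO values. Rpl8, which lines the peptidyl transferase centre, had 4404, 3982 and 4291 TPM under DMSO and 3914, 3695 and 3785 TPM under TVA (log2 change -0.15, SE 0.051, limma adjusted p 0.094). Rpl24, which forms a bridge to the small subunit, had 2384, 2194 and 2436 TPM under DMSO and 2115, 2105 and 2104 TPM under TVA (log2 change -0.15, SE 0.048, limma adjusted p 0.088). In both genes DMSO replicate 2 was the DMSO library nearest to the TVA values. Rpl13a, known beyond the ribosome for its part in silencing inflammatory mRNAs, had overlapping groups at 4194, 3763 and 4036 TPM under DMSO and 3802, 3616 and 3630 TPM under TVA (log2 change -0.12, limma adjusted p 0.17). Without DMSO replicate 2 the limma adjusted p was 0.016 for Rpl8, 0.0098 for Rpl24 and 0.032 for Rpl13a, whereas after the GC correction the changes of Rpl8 and Rpl13a were -0.07 and -0.08.

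The largest positive change of the large subunit was that of Rpl30, whose product sits at the joint of the subunits. It had 159.6, 203 and 187 TPM under DMSO and 227, 216 and 198 TPM under TVA. TVA replicate 3 lay below DMSO replicate 2, so the groups overlapped. The log2 change was 0.23 (SE 0.090, limma adjusted p 0.13), 0.30 without DMSO replicate 2 (limma adjusted p 0.035) and 0.13 without DMSO replicate 1 (limma adjusted p 0.20). Rpl31, an exit tunnel protein, had 1253, 1507 and 1284 TPM under DMSO and 1383, 1441 and 1437 TPM under TVA (log2 change 0.08, limma adjusted p 0.45), and was called without DMSO replicate 2 (0.024), while without DMSO replicate 1 its change was 0.03 (0.78). Rpl26, another protein near the tunnel exit, which is also known to promote p53 translation, had 596, 844 and 749 TPM under DMSO and 757, 745 and 779.8 TPM under TVA (log2 change 0.07, limma adjusted p 0.67). In these 2 genes all TVA values lay inside the DMSO range, and without DMSO replicate 1, its lowest library, the change of Rpl26 was -0.06.

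The small subunit gene with the largest difference was Rps2, which encodes a protein at the entry of the mRNA channel. Its level was 6859, 4464 and 7064 TPM in the DMSO libraries and 4465, 4464 and 4421 TPM in the TVA libraries. DMSO replicate 2 was at the level of the TVA libraries, while the other DMSO libraries were far above it, as in Rpl13. The log2 change was -0.43 (SE 0.16, limma adjusted p 0.12), and -0.65 without DMSO replicate 2 (limma adjusted p 7.77e-05). It was -0.34 without DMSO replicate 1 (limma adjusted p 0.20) and -0.31 without DMSO replicate 3 (limma adjusted p 0.26). Rps26, which contacts the mRNA upstream of the start codon, had 6024, 5116 and 5972 TPM under DMSO and 5175, 5058 and 5023 TPM under TVA (log2 change -0.16, SE 0.067, limma adjusted p 0.15). There, too, DMSO replicate 2 lay among the TVA values, and without it the limma adjusted p was 0.0055. Without DMSO replicate 1 the change of Rps26 was -0.12 (limma adjusted p 0.23).

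Rps7 and Rps10 of the small subunit differed with less spread within the groups. Rps7, which can bind MDM2, had 2161, 1964 and 2079 TPM under DMSO and 1881, 1846 and 1847 TPM under TVA (log2 change -0.15, SE 0.045, limma adjusted p 0.070). Rps10, a protein of the small subunit beak, had 4201, 4026 and 4258 TPM under DMSO and 3897, 3737 and 3806 TPM under TVA (log2 change -0.13, SE 0.042, limma adjusted p 0.095). In both genes the TVA values lay below all DMSO values. Without DMSO replicate 2 the limma adjusted p was 0.013 for Rps7 and 0.029 for Rps10, and after the GC correction the change of Rps10 was -0.08 (0.38).

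Rps20, a head protein and 1 of the least abundant small subunit mRNAs, had 520.3, 413 and 428 TPM under DMSO and 418, 394 and 394 TPM under TVA (log2 change -0.17, limma adjusted p 0.21). DMSO replicate 1 stood apart, and the change of Rps20 without it was -0.07. Rps29, the most abundant of the small subunit mRNAs, had a positive change of 0.12 (SE 0.084, limma adjusted p 0.34), and DMSO replicate 1 was its lowest library. Without DMSO replicate 1 the change of Rps29 was 0.03, and without DMSO replicate 2 it was 0.21 and called (limma adjusted p 0.046).

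**Figure D4:**
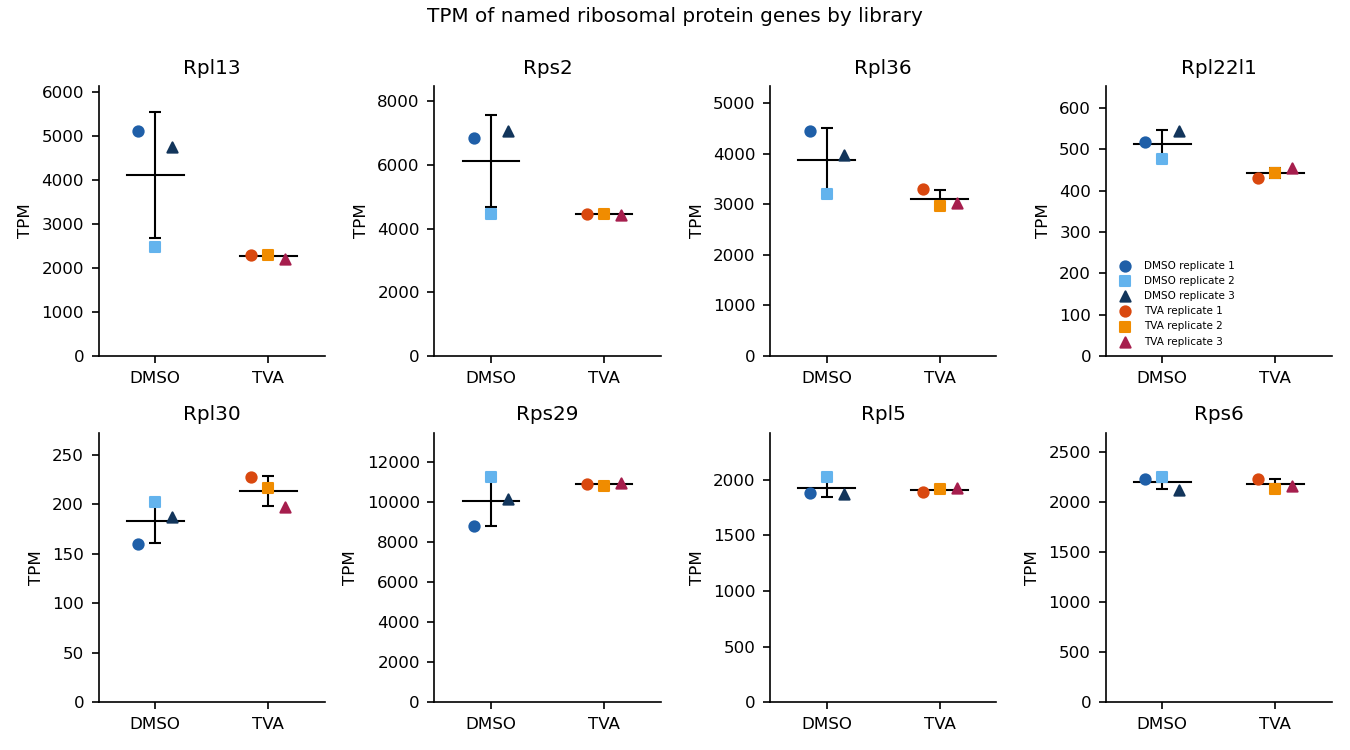
TPM of 8 ribosomal protein genes (vertical axes, starting at 0) in each DMSO and TVA library. Points are single libraries and bars the group mean ± SD (n = 3); in Rpl13 and Rps2, DMSO replicate 2 lies at the level of the TVA libraries, while in Rpl22l1 all TVA values lie below all DMSO values.

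Seen by function, no group of subunit proteins held a called gene. Over all genes tested, 8.51% were called, and the TVA values lay below all DMSO values in 11.2% and above them in 27.3%. The 4 genes tied to the 5S RNA complex or the p53 checkpoint (Rpl5, Rpl11, Rpl23 and Rpl26) had a median log2 change of -0.0051, and none had groups that did not overlap. Rpl5 was at 1883, 2020.1 and 1875 TPM under DMSO and 1886, 1919 and 1930.0 TPM under TVA (log2 change -0.01, SE 0.043, limma adjusted p 0.89). Rpl11, its partner, was at 3678, 3531 and 3507 TPM under DMSO and 3507, 3340.4 and 3445 TPM under TVA (log2 change -0.06, SE 0.042, limma adjusted p 0.36). The TVA values of Rpl5 lay inside its DMSO range, and the highest TVA value of Rpl11 reached its lowest DMSO value.

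The 4 stalk genes, whose proteins bring elongation factors to the large subunit, had changes from -0.12 to -0.02. Rplp0, the base of the stalk, was at 5165, 4893 and 4849 TPM under DMSO and 4882, 4773 and 4780.5 TPM under TVA (log2 change -0.05, limma adjusted p 0.49). Rplp2 was at 7071, 6133 and 7097 TPM under DMSO and 6661, 5877 and 6147 TPM under TVA (log2 change -0.12, limma adjusted p 0.30, and 0.048 without DMSO replicate 2), and Rplp1 had a log2 change of -0.02 (limma adjusted p 0.75). The groups of these 3 genes overlapped. The 8 exit tunnel genes had a median change of -0.08 and the 5 genes at the peptidyl transferase centre and core a median of -0.04. In the latter list Rpl8 and Rpl27 were lower in all TVA than in all DMSO libraries, as were 11.2% of all genes tested.

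In the small subunit, the 7 genes listed for the mRNA channel and decoding region had a median change of -0.02, with Rps2 the lowest and the other 6 within 0.1 of 0. That list also held Rps12, which is a protein of the beak. Rps14, mutated or lost in forms of anaemia, was at 4023, 5435 and 5084 TPM under DMSO and 4975, 4938 and 4990.1 TPM under TVA (log2 change 0.05, SE 0.10, limma adjusted p 0.77). The 9 genes listed for the head and beak had a median of -0.11, the lowest of the functional lists. That list also held Rps7, which belongs to neither the head nor the beak. In 3 of the 9, Rps7 and Rps10 included, the TVA values lay below all DMSO values, against 6 of 32 small subunit genes and 11.2% of all genes tested. Rps19, the gene most often mutated in Diamond-Blackfan anaemia, was at 2713, 2438 and 2261 TPM under DMSO and 2289.8, 2188 and 2367 TPM under TVA, so its groups overlapped (log2 change -0.11, limma adjusted p 0.30). Without DMSO replicate 1 the change of Rps19 was -0.04. Rps6, the substrate of S6 kinase, was at 2233, 2243 and 2119 TPM under DMSO and 2232, 2133 and 2160.0 TPM under TVA (log2 change -0.02, SE 0.042, limma adjusted p 0.82). Rpsa, known also as the laminin receptor, was at 3288, 3464 and 3090.0 TPM under DMSO and 3388, 3341 and 3326 TPM under TVA (log2 change 0.03, SE 0.050, limma adjusted p 0.68). Their groups overlapped throughout.

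Paralogs, which can take the place of the usual protein in some ribosomes, were mostly far below their parent gene. Rpl22l1 was not, with 519, 478 and 544 TPM in the DMSO libraries and 431, 443 and 455 TPM in the TVA libraries. All TVA values lay below all DMSO values, and the log2 change of -0.21 (SE 0.053) stood just outside the threshold (limma adjusted p 0.0505). It passed after median-of-ratios scaling (0.042), quantile normalization (0.043), scaling to the total without the ribosomal protein genes (0.046), the GC correction (0.019) and without DMSO replicate 2 (0.0064). Its parent Rpl22, an RNA-binding protein needed for T cell development, stood at 254, 209 and 231 TPM under DMSO and 199, 208 and 212 TPM under TVA. The paralog was thus the more abundant of the pair in every library, and the groups of Rpl22 overlapped (log2 change -0.16, SE 0.070, limma adjusted p 0.16). Without DMSO replicate 2 the limma adjusted p of Rpl22 was 0.021, and without DMSO replicate 1 its change was -0.09 (0.26).

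Rps27l, a p53 target, had 1265, 1262 and 1351 TPM under DMSO and 1322, 1318 and 1334 TPM under TVA (log2 change 0.04, SE 0.041, limma adjusted p 0.57). Rpl7l1, which works in ribosome assembly, had 170.4, 162 and 157 TPM under DMSO and 169, 172 and 174 TPM under TVA (log2 change 0.07, limma adjusted p 0.25). Rpl39l, best known from testis, was listed at 2.34 to 3.75 TPM under DMSO and 2.44 to 2.75 TPM under TVA (log2 change -0.15, limma adjusted p 0.42). Over the alternatives its change ran from -0.28 to -0.03. Its parent Rpl39 had 4342 to 4883 TPM and a log2 change of 0.06 (limma adjusted p 0.48), which was 0.02 without DMSO replicate 1. The groups of these genes overlapped. Rpl32l had 1.17 to 2.69 TPM over the 6 libraries. Rpl3l, a paralog of striated muscle, was at 0.05 TPM or less, and Rpl10l, a paralog of the male germ line, was listed at 0 in every library, so neither was tested.

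Rps27, a small subunit protein, was the third gene not tested. It was listed at 29.7 TPM in DMSO replicate 1 and at 0 in the other 5 libraries, although every ribosome carries its product. The retrotransposed copy Rps27rt had 7509, 10407 and 9656 TPM under DMSO and 10187, 9499 and 9543 TPM under TVA. The Rps27 transcript of 345 bases shares an unbroken stretch of 341 bases with the transcript of Rps27rt, so the level of each is uncertain. Likewise Rpl34 had 789.7 to 931 TPM, while Rpl34-ps1, with a shared stretch of 185 bases, had 4679, 4821 and 5210 TPM under DMSO and 4598, 4547 and 4670.03 TPM under TVA. Adding the rows of pseudogenes and retrotransposed copies to their parent genes changed no call.

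Some ribosomal proteins are encoded by genes whose symbols fall outside the rule. Of 5 such genes in the table, among them Fau, Rack1, Rpl36al and Rps27rt, 0 were called, against 8.51% of all genes tested. Fau, which encodes a ubiquitin-like protein fused to a small subunit protein, had 2115, 1636 and 1596 TPM under DMSO and 1438, 1446 and 1429 TPM under TVA. All its TVA values lay below the DMSO values (log2 change -0.30, SE 0.10, limma adjusted p 0.094), and it passed the threshold without DMSO replicate 1 (change -0.17, 0.025) and without DMSO replicate 2 (-0.35, 0.043). Rack1, a signalling scaffold of the small subunit, had 3085 to 3379 TPM under DMSO and 3061 to 3140.35 TPM under TVA, and its groups overlapped.

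Other genes whose mRNAs carry a TOP element encode translation factors and similar proteins. Of 19 of these genes tested, 0 were called, against 8.51% of all genes tested. The change was negative in 14 of the 19, against 38.5% of all genes, and the median was -0.06, against 0.04. The TVA values lay below all DMSO values in 6 and above them in 1, against 11.2% and 27.3% of all genes. Of 20 regulators of translation, among them the subunits of mTOR complex 1, the S6 kinases and the 4E-binding proteins, 19 were tested. Where 5.28% of all genes were called higher with TVA, 1 of the 19 was. This was Tsc1, which encodes an inhibitor of mTOR complex 1 upstream of the kinase, with 11.5, 12.5 and 11.2 TPM under DMSO and 13.5, 13.9 and 14.3 TPM under TVA (log2 change 0.23, SE 0.055, limma adjusted p 0.047). All TVA values of Tsc1 lay above its DMSO values. Tsc1 was no longer called without any 1 library other than DMSO replicate 2 (adjusted p 0.064 to 0.18) or under the other scalings tried (0.060 to 0.072), with the replicate block (0.080), after a correction for transcript length (0.066) and with all genes above 0 TPM tested (0.082).

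Of 10 genes tied to p53 or to ribosomal stress, Trp53 itself included, 1 was called, lower with TVA. Over all genes tested, 8.51% were called, 3.23% lower. The change was negative in 8 of the 10, against 38.5% of all genes, and the median was -0.08, against 0.04. The TVA values lay below all DMSO values in 5 of the 10 and above them in 1, against 11.2% and 27.3% of all genes. Sesn2, an inhibitor of mTOR complex 1 that senses leucine, had 79.3, 67.4 and 66.5 TPM under DMSO and 59.2, 57.6 and 58.7 TPM under TVA, without overlap (log2 change -0.27, SE 0.067, limma adjusted p 0.049). Sesn2 was no longer called without DMSO replicate 3 (adjusted p 0.069) and without any 1 of the TVA libraries (0.13 to 0.18), with the replicate block (0.065), without the variance trend (0.064) and with all genes above 0 TPM tested (0.089), and its change was -0.18 after the GC correction, where it was called (0.015). The most negative changes of the list were those of Bbc3, which encodes the pro-apoptotic PUMA, and of Phlda3, an inhibitor of AKT. Bbc3 was at 76.8, 46.1 and 64.0 TPM under DMSO and 41.2, 39.7 and 38.6 TPM under TVA (log2 change -0.60, SE 0.16, limma adjusted p 0.055), and Phlda3 at 171, 103 and 142 TPM under DMSO and 90.96, 88.7 and 90.8 TPM under TVA (log2 change -0.58, SE 0.16, limma adjusted p 0.059). Both had no overlap and DMSO replicate 2 as the lowest DMSO library, without which they were called (0.00067 and 0.00062), while after the GC correction the change of Bbc3 was 0.25 (0.30) and that of Phlda3 -0.50 (0.047). Trp53 itself was at 172, 168 and 157 TPM under DMSO and 171, 174 and 171 TPM under TVA, and Cdkn1a, a p53 target that blocks the cell cycle, at 568, 579 and 529.9 TPM under DMSO and 517, 529 and 522 TPM under TVA. Mdm2 was at 144, 134 and 140.2 TPM under DMSO and 138, 139 and 139 TPM under TVA, inside the DMSO range. The TVA values of Cdkn1a lay below all DMSO values, while the groups of Trp53 overlapped.

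Transcript GC content moved with the changes. Over the 82 genes, GC content and log2 change were correlated at -0.30 (Spearman), and over 10805 genes tested at -0.40. Inside the DMSO group, the difference of replicate 1 from replicate 3 had a correlation with GC content of 0.31 over the ribosomal protein genes and of 0.62 over all genes. These are descriptions across genes that share the same libraries. The ribosomal protein transcripts had a median GC content of 51.9% and a median length of 634.5 bases, against 50.4% and 1319 bases over all genes tested. After a loess correction for GC content within each library, the calls were Rpl22l1 and Rps7, both lower, against 10.2% of all genes called, and the median change relative to all genes went from -0.09 to -0.06 in the large subunit and from -0.06 to -0.07 in the small subunit.

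**Figure D5:**
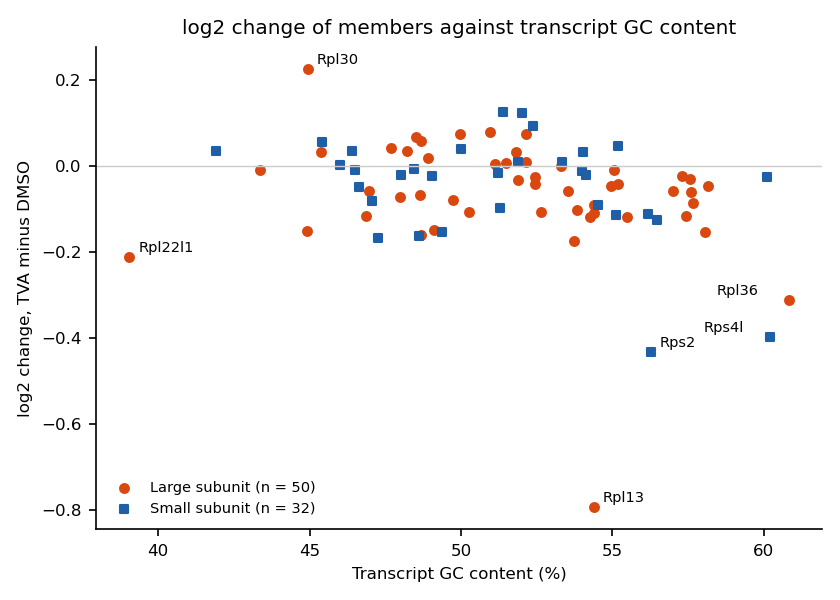
Log2 change between TVA and DMSO (vertical axis) against the GC content of the transcripts (horizontal axis, %) for the 50 large and 32 small subunit genes tested. The Spearman correlation over the 82 genes was -0.30; Rpl13 and Rps2 lie below the rest at a GC content of 54.4% and 56.3%.

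The median changes lay close together with and without these promoter sequences. Leaving out paralogs, 22 genes with a run of at least 8 C or T bases around the annotated start had a median log2 change of -0.05 (range -0.79 to 0.08), and 34 without such a run had a median of -0.03 (range -0.43 to 0.07). With CCGGAAG in the promoter the median was -0.06 over 23 genes, and without it -0.03 over 33 genes. Rpl13 and Rps2, the genes with the largest differences, had a run of 9 and of 6 bases.

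Marker genes were summed to check the cell type. The 8 CD8 T cell genes summed to 2172 to 2309 TPM under DMSO and 2398 to 2423 TPM under TVA. Sums were 9.97 to 11.6 TPM under DMSO and 8.72 to 10.4 TPM under TVA for 3 CD4 T cell genes, 11.4 to 15.04 and 10.8 to 11.2 TPM for 6 B cell genes, and 191 to 218 and 202 to 217 TPM for 7 myeloid genes. The 3 NK cell genes summed to 21.3 to 23.9 TPM under DMSO and 32.5 to 33.1 TPM under TVA, and the 5 red cell genes to 16.2 to 29.4 and 9.47 to 23.4 TPM. The NK sum was carried by Eomes, which activated CD8 T cells also express. Eomes had 23.45, 20.42 and 21.82 TPM under DMSO and 32.9, 32.42 and 32.07 TPM under TVA. The mean of Ncr1 was 0.31 TPM under DMSO and 0.16 TPM under TVA, and that of Klrb1c 0.32 and 0.17 TPM, so both went the other way and neither was tested. The myeloid sum was carried by Cst3, with 151 to 176 TPM under DMSO and 149 to 163.5 TPM under TVA. In 5 of the 6 myeloid genes tested (Lyz2, Csf1r, Itgam, Cd14 and Fcgr3) all TVA values lay above all DMSO values, against 27.3% of all genes tested. Lyz2, the lysozyme of macrophages and neutrophils, was called higher at 30.9, 31.0 and 28.9 TPM under DMSO and 41.3, 39.8 and 38.0 TPM under TVA (log2 change 0.38, SE 0.048, limma adjusted p 0.0076, and 0.054 without TVA replicate 2). Other marker genes called were Cd3g (log2 change 0.28, limma adjusted p 0.0063) and Eomes (0.55, 0.0031), both higher, and Hbb-bt (-0.67, 0.012), lower. Over the alternatives their limma adjusted p reached 0.056, 0.032 and 0.064. No gene of these lists was at 0 in every library. The part of these differences in the levels of the ribosomal protein genes was not tested.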

How the data were processed

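The authors deposited a table of TPM per gene symbol for 6 libraries made with a SMARTER mRNA-Seq kit. STAR, RSEM and mm10 are named in the submitters' processing notes. Versions and the annotation are not given in the sources used here. RSEM shares reads between near-identical transcripts, so copies can exchange signal. Groups and replicate numbers came from the sample labels.

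From the deposited TPM, log2(TPM + 1) was computed, which understates changes of low genes. Genes with at least 1 TPM in at least 3 libraries (10866) entered limma 3.58.1 (R 4.3.3), with a variance trend (two-sided, Benjamini-Hochberg over all genes tested, threshold 0.05, no block). Sums, medians and correlations are descriptions. Genes named were those called, the 3 highest and 3 lowest of each subunit by change and by level, and members of functional lists. A few genes that this rule or the lists name are not reported here. Other genes named were chosen after their values were seen. The members and lists were chosen with earlier results of these data known. GC content and length came from GENCODE vM21, start sites from RefSeq GRCm38.p6. The fit was tested on simulated data. Alternatives were a pseudocount of 0.1, all genes above 0 TPM, only genes averaging 10 TPM or more, size factors from medians of ratios, quantile normalization, scaling without the members, no trend, a replicate block, GC and length corrections, copies added to their parents, and each library left out. One of these, adding retrotransposed copies, was chosen after seeing the data. Figures were drawn with matplotlib 3.10.9.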

Additional observations from a re-analysis of the deposited data

How the results depend on the processing

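The count of large subunit genes called, 0, became 1 after median-of-ratios scaling, quantile normalization or the GC correction, 2 after scaling to the total without the ribosomal protein genes, and 0 to 12 when each library was left out in turn. The count of small subunit genes called, 1, became 0 when every gene above 0 TPM was tested, when only those averaging 10 TPM or more were (which leaves out Rps4l) and with the replicate block, and 0 to 8 when each library was left out. Without DMSO replicate 2, 12 large and 8 small subunit genes were called. The same replicate number did not pair the libraries, with correlations of their deviations of 0.16, 0.035 and -0.077 over all genes, and with the replicate number as a block 218 genes and none of the ribosomal protein genes were called.

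The median log2 change relative to all genes, -0.091 for the large subunit, was -0.056 with every gene above 0 TPM tested, -0.045 after quantile normalization, -0.059 after the GC correction and -0.106 to -0.077 when each library was left out. For the small subunit, -0.057, it was -0.030, -0.022, -0.074 and -0.096 to -0.033 under the same settings. The large subunit sum differed by -7.15%, -5.94% and -2.41% after median-of-ratios scaling, scaling without the members and quantile normalization, and the small subunit sum, -1.94%, by -4.51%, -3.25% and -0.32%, and by -3.15% to -1.15% when each library was left out. Median-of-ratios scaling moved the median of all genes from 0.04 to 0.0043.

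Over 18 alternatives and the 82 genes there were 1473 values, of which 1335 kept sign and side of the threshold, 26 gained and 7 lost a call, and 105 in 42 genes changed sign. None of those was called, and none had a change above 0.12 in size. Among the genes with a printed change, quantile normalization gave -0.014 for Rps29, -0.036 for Rps27l, 0.0075 for Rpl5, 0.050 for Rps6, 0.0090 for Rps19 and -0.069 for Rps12. The GC correction gave 0.25 for Bbc3, -0.050 for Rps27l, -0.0079 for Rps4x, 0.037 for Rplp0 and 0.040 for Rplp1. Median-of-ratios scaling gave -0.0021 for Rps27l and -0.0054 for Rpsa. When each library was left out, the change ran from -0.064 to 0.19 for Rpl26, -0.011 to 0.14 for Rps4x, -0.029 to 0.025 for Rpl5, -0.055 to 0.00086 for Rplp1, -0.010 to 0.072 for Rpsa and -0.081 to 0.14 for Rps14. The cause of these shifts was not tested. Depth is unknown, so its limit cannot be given.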
